A study of Caenorhabditis elegans with 27 samples.

Results

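The genes described here are 8 chromatin genes of Caenorhabditis elegans that act in the germ line: mes-2, mes-3, mes-4, mes-6, met-1, met-2, zfp-1 and mrg-1. They were given as a list of names: each name was looked up in the deposited comparison tables and the row of the count table with the same sequence identifier was taken (R06A4.7, F54C1.3, Y2H9A.1, C09G4.5, C43E11.3, R05D3.11, F54F2.2 and Y37D8A.9, in the order above). All 8 were found among the 45461 features of the count table, and all 8 are among the 7425 expressed genes, those with a mean of at least 100 normalised counts in the input libraries. The study depleted either of 2 cytoplasmic poly(A) polymerases, GLD-2 or GLD-4, enzymes that lengthen the poly(A) tails of mRNAs, and asked how mRNA abundance and ribosome association respond. Young adult hermaphrodites of the wild-type strain N2 ate HT115 bacteria that make double-stranded RNA against gld-2 or gld-4, or carry the empty vector pL4440 (control RNAi). Poly(A)-selected RNA was sequenced from whole-animal lysate (input) and from pooled non-polysomal (NP) and polysomal (P) fractions of sucrose gradients, with 3 libraries in each of the 9 groups. These are knockdowns in whole animals: gld-2(RNAi) animals were sterile, gld-4(RNAi) animals were fertile, and the soma is part of every sample.

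Histone methylation keeps a record of which genes a germ cell uses. MES-2, MES-3 and MES-6 form the worm's Polycomb repressive complex 2 (PRC2), which methylates lysine 27 of histone H3 (H3K27). MES-2 carries the catalytic SET domain and is the counterpart of Enhancer of zeste, and MES-6 that of ESC/EED. MES-4 and MET-1 methylate lysine 36 (H3K36), MES-4 maintaining the mark on germline genes and MET-1 depositing it during transcription. MET-2, related to SETDB1, methylates lysine 9 (H3K9), a mark of silent chromatin. MRG-1 is a chromodomain protein of the MRG15 family, and ZFP-1 is a PHD finger protein related to mammalian AF10. Loss of a maternal MES protein leaves the offspring sterile, hence the name, maternal-effect sterile.

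The libraries held 12160686 to 18132556 counts. In the input, gld-2 was at 49.5, 79.4 and 97.6 CPM, counts scaled to the depth of the library, under control RNAi and at 4.38, 10.2 and 5.76 in gld-2(RNAi), and gld-4 was at 104, 172 and 180 under control RNAi and at 8.41, 18.6 and 17.6 in gld-4(RNAi), so the targets matched the labels. CPM here is scaled by TMM over the expressed genes of all 27 libraries. In the input, replicate 1 stood apart in every RNAi condition: the summed level of 78 genes with spermatogenesis names was 1602 CPM in control replicate 1 against 519 and 603 in replicates 2 and 3, and the summed level of 16 oocyte and eggshell genes was lowest in replicate 1, at 8568 against 10793 and 11124 under control RNAi. In the fractions the spermatogenesis level was again highest in replicate 1 of every condition, but the oocyte and eggshell level was not always lowest there: in control P it was 7303 against 7067 and 7075. Results were therefore also computed without all replicate 1 libraries. Both RNAi conditions were set against the same control libraries.

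Under control RNAi, the 8 mRNAs covered a wide range of levels. Per kilobase of exon in the input, mrg-1 was highest, at 218 CPM per kilobase, in the percentile 92.0 of expressed genes. It was followed by mes-4 at 50.04, mes-6 at 41.1, mes-2 at 38.4, met-1 at 35.9, zfp-1 at 21.4, met-2 at 20.6 and mes-3 at 13.98, on the same scale, with a median of 34.4 over the expressed genes with a known exon length. The ranges over the 3 libraries overlapped between mes-6 and mes-2, between mes-2 and met-1, and between zfp-1 and met-2. The other neighbours in this order did not overlap. By the annotation, mes-6 shares 380 of its 1676 exon bases with C09G4.4 on the same strand, a gene at 0 in the control and gld-2(RNAi) input, so the level of mes-6, its place in the order and its ratio to mes-2 are uncertain. mes-3 was thus the scarcest mRNA of the 8, below its PRC2 partners mes-2 and mes-6 in every control library.

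In gld-2(RNAi) input, 5 of the 8 mRNAs fell and 2 rose. mes-3, mes-4, met-1, zfp-1 and mrg-1 were lower than in control RNAi, by 1.48-fold to 2.50-fold, whereas mes-2 and met-2 were higher by 1.58-fold and 1.498-fold. The 3 PRC2 subunits moved apart: the mRNA of the catalytic subunit rose, that of MES-3 fell and that of MES-6 did not pass the test. The test was edgeR's quasi-likelihood test with Benjamini-Hochberg adjustment over all expressed genes. In that comparison 24.7% of expressed genes were lower and 21.3% higher at an adjusted p of at most 0.05, so that 46% passed in either direction, against 7 of the 8. All changes below are log2 fold changes from this test, with their standard errors.

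Among the PRC2 subunits, mes-2 was at 86.7, 104 and 94.7 CPM under control RNAi, at 142, 158 and 160 CPM in gld-2(RNAi) and at 69.2, 85.8 and 75.4 CPM in gld-4(RNAi). The 3 gld-2(RNAi) libraries all lay above the control libraries, and all 3 gld-4(RNAi) libraries lay below the control mean. In gld-2(RNAi) mes-2 rose by 0.66 ± 0.11 (adjusted p = 0.00341, higher in 3 of 3 replicates).

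mes-3 had 48.3, 42.6 and 40.2 CPM under control RNAi, 28.5, 28.2 and 25.4 CPM in gld-2(RNAi) and 53.7, 42.6 and 44.6 CPM in gld-4(RNAi). Its gld-2(RNAi) libraries lay below every other input library. The change in gld-2(RNAi) was -0.70 ± 0.15 (adjusted p = 0.00956, lower in 3 of 3 replicates). mes-6, the third subunit, was at 64.0, 75.4 and 67.3 CPM under control RNAi and at 69.3, 88.6 and 83.8 CPM in gld-2(RNAi). These groups overlapped, and the difference of 0.20 ± 0.13 did not pass the test (adjusted p = 0.25). As a description of this opposite movement, the ratio of mes-2 to mes-3 per kilobase within an input library was 2.26 to 3.09 under control RNAi, 6.26 to 7.91 in gld-2(RNAi) and 1.63 to 2.54 in gld-4(RNAi). Likewise the ratio of mes-2 to mes-6 was 0.915 to 0.950 under control RNAi, 1.205 to 1.38 in gld-2(RNAi) and 0.657 to 0.794 in gld-4(RNAi).

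Both H3K36 methyltransferase mRNAs fell in gld-2(RNAi). mes-4 went from 146, 158 and 165 CPM under control RNAi to 98.8, 112 and 111 CPM in gld-2(RNAi), with no overlap and a change of -0.57 ± 0.10 (adjusted p = 0.00443). met-1 went from 152, 225 and 228 CPM to 67.7, 112 and 117 CPM, with no overlap either, and changed by -1.06 ± 0.24 (adjusted p = 0.0110). Replicate 1 was the lowest met-1 library in both groups.

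The H3K9 methyltransferase mRNA met-2 was the other gene that rose. It was at 88.1, 92.3 and 74.6 CPM under control RNAi and at 132, 140 and 117 CPM in gld-2(RNAi), without overlap, a change of 0.58 ± 0.13 (adjusted p = 0.0110). This call did not hold with library size alone as scaling (adjusted p = 0.0796), without a filter on low counts (adjusted p = 0.0752) or without gld-2(RNAi) replicate 2 (adjusted p = 0.0542).

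The 2 remaining genes encode chromatin-binding proteins, and both fell. zfp-1 had the largest change of the 8, from 97.6, 138 and 139 CPM under control RNAi to 51.0, 50.9 and 50.9 CPM in gld-2(RNAi). The control libraries differed among themselves, with replicate 1 lowest, and the gld-2(RNAi) libraries lay within 1 CPM of each other, below all of them. The change was -1.32 ± 0.15 (adjusted p = 0.000868). By the annotation of the reference, exons of zfp-1 overlap those of ztf-1 (429 bases) and of F54F2.7 (75 bases) on the opposite strand, and of F54F2.14 (712 bases) on the same strand. Reads over shared bases cannot be assigned here, since the counting was not established as stranded and strand would not separate F54F2.14 from zfp-1. ztf-1 itself changed by -0.45 in gld-2(RNAi) (adjusted p = 0.0192) and F54F2.7 by -0.75 (adjusted p = 0.0350). F54F2.14 is not among the counted features, so it has no level of its own here. mrg-1 went from 294, 319 and 369 CPM to 181, 184 and 225 CPM, without overlap, a change of -0.76 ± 0.13 (adjusted p = 0.00404).

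**Figure D1:**
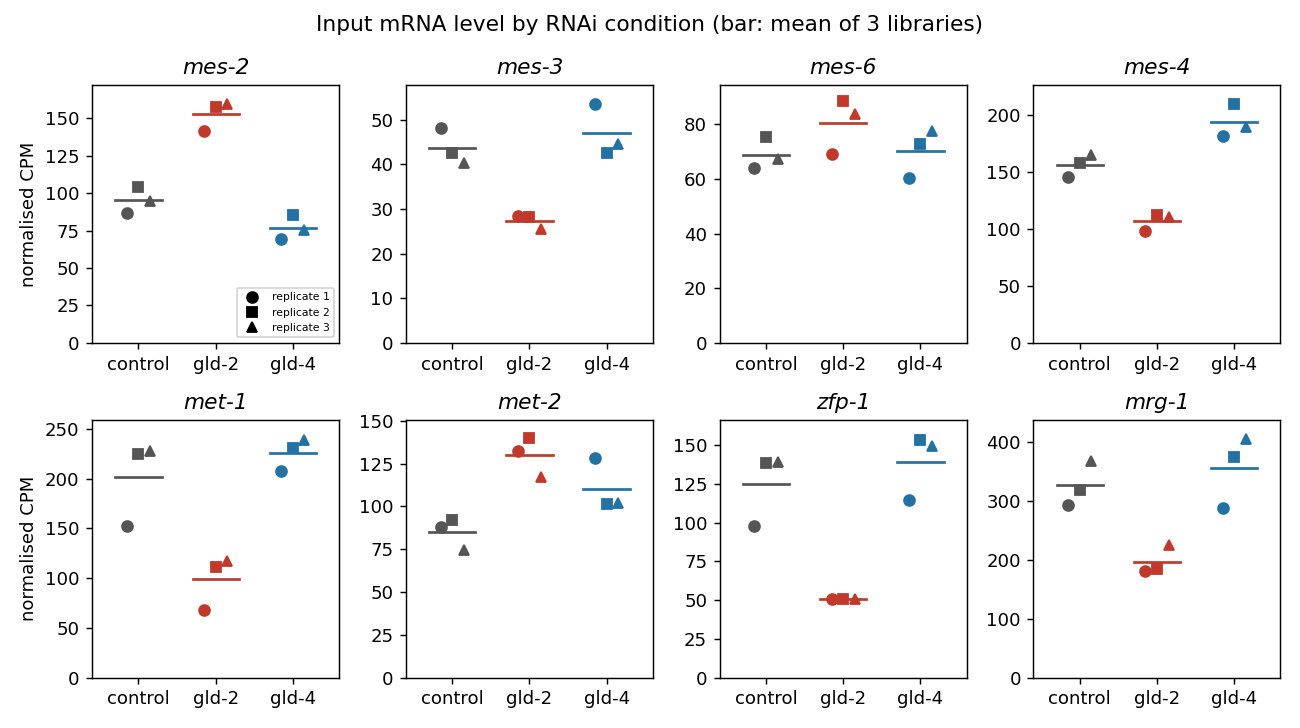
Level of each mRNA in the 9 input libraries, in normalised CPM, by RNAi condition; symbols mark the replicate number and bars the mean of 3 libraries. mes-2 and met-2 were higher in all 3 gld-2(RNAi) libraries than in all control libraries, mes-3, mes-4, met-1, zfp-1 and mrg-1 were lower, and mes-6 overlapped.

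With a 2-fold change required as well, 2 of the 8 passed, met-1 and zfp-1, both lower, where 12.2% of expressed genes passed in that direction. The groups of 3 libraries did not overlap for 7 of the 8 genes, against 56.6% of expressed genes. The median log2 fold change of the 8 was -0.64, against 0.03 over all expressed genes. The 5 decreases were found under every alternative tried, including the fit without replicate 1, in which zfp-1 changed by -1.47 and mes-2 by 0.65.

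In these bulk samples, fewer germ cells and less of an mRNA per germ cell cannot be told apart. The libraries were poly(A)-selected, and the paper reports shorter bulk poly(A) tails in gld-2(RNAi). Weaker capture of short-tailed mRNA cannot be told apart from these either. The paper checked example genes by RT-qPCR with random hexamers and found most of its down-regulated ones reduced in gld-2 mutants. That check was not made here for the 8 genes. Germ cell markers also moved in gld-2(RNAi) input: 52 of 54 expressed spermatogenesis genes were higher and 1 lower, 11 of 16 oocyte and eggshell genes were lower and 1 higher, and 5 of 8 genes of the mitotic and meiotic germ line were lower and 1 higher. Summed levels of the spermatogenesis genes were 519 to 1602 CPM under control RNAi and 4769 to 10999 CPM in gld-2(RNAi), those of the oocyte and eggshell genes 8568 to 11124 and 3694 to 6215 CPM, and those of the mitotic and meiotic genes 1315 to 1462 and 950 to 1261 CPM. None of the 8 muscle genes and none of the 7 expressed intestine genes passed the edgeR test. Of 10 early embryo genes, 0 were expressed, with summed levels of 9.58 to 11.7 CPM under control RNAi and 4.401 to 5.49 CPM in gld-2(RNAi). Of the oocyte, mitotic and meiotic, muscle and intestine markers, no gene was at 0 in a whole input group. The part of these markers in the changes of the chromatin mRNAs was not tested.

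In gld-4(RNAi) input, none of the 8 mRNAs passed the edgeR test, where 14.5% of expressed genes did. Their changes ran from -0.36 to 0.33 (adjusted p 0.0696 to 0.896), and 2 had an unadjusted p under 0.05. The lowest value was that of mes-2, at -0.36 ± 0.11 (adjusted p = 0.0696), which passed with DESeq2 (adjusted p = 0.0250). Without the replicate 1 libraries, mes-2 passed in edgeR as lower (-0.39, adjusted p = 0.00370) and mes-4 as higher (0.22, adjusted p = 0.0482). Fits that left out libraries called 0 to 1928 expressed genes lower and 0 to 1648 higher. With the replicate number as a block, in the pairing of libraries that share a number, mes-2 passed as lower (adjusted p = 0.00833), mes-4 as higher at 0.26 (adjusted p = 0.0314) and met-2 as higher at 0.32 (adjusted p = 0.0268), while that fit called 45.8% of expressed genes. Oocyte and eggshell genes were higher in gld-4(RNAi) for 6 of 16, with summed levels of 12771 to 17786 CPM, and 0 of 54 spermatogenesis genes passed, their summed levels being 725 to 3578 CPM. The part of these markers was not tested.

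A direct comparison of the RNAi conditions in the input called 6 of the 8, against 45.8% of expressed genes (25% lower in gld-2(RNAi) and 20.8% higher). mes-2 was higher in the gld-2(RNAi) libraries, by 0.98 ± 0.12 (adjusted p = 0.000819). mes-3 (-0.79), mes-4 (-0.87), met-1 (-1.201), zfp-1 (-1.46) and mrg-1 (-0.86) were lower, with adjusted p from 0.000277 to 0.00773. mes-6 at 0.19 and met-2 at 0.22 did not pass. The test of met-2 passed without replicate 1 of gld-4(RNAi) (adjusted p = 0.0480), the library with the highest met-2 level of its group.

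The NP and P fractions hold mRNAs that sediment without and with several ribosomes, so each RNAi effect could be measured in 2 further kinds of library. In NP, 5 of the 8 fell in gld-2(RNAi), where 30.2% of expressed genes fell: mes-3 (-0.72 ± 0.12), mes-4 (-0.80 ± 0.10), met-1 (-0.94 ± 0.22), zfp-1 (-1.14 ± 0.09) and mrg-1 (-0.93 ± 0.09), with adjusted p from 0.000136 to 0.0117. These are the genes that fell in the input. mes-2 rose by 0.50 ± 0.09 (adjusted p = 0.00418), where 27.7% of expressed genes rose, but not with library size alone (adjusted p = 0.0543) or without a filter (adjusted p = 0.110). met-2 had 0.31 ± 0.15 (adjusted p = 0.116) and passed with the replicate block (adjusted p = 0.00758), which called 70.9% of expressed genes.

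In P, 4 fell in gld-2(RNAi), where 21.3% of expressed genes fell: mes-3 (-0.64 ± 0.18), mes-4 (-0.56 ± 0.08), met-1 (-0.98 ± 0.23) and zfp-1 (-1.68 ± 0.20), with adjusted p from 0.00258 to 0.0349. zfp-1 was at 111, 149 and 154 CPM in control P libraries and at 33.3, 47.0 and 47.7 CPM in gld-2(RNAi) P libraries. Its fold change, 3.198-fold lower, was the largest of the 8 genes in the RNAi comparisons. mes-2 rose by 0.58 ± 0.10 (adjusted p = 0.00730), where 18.1% of expressed genes rose, but not with library size alone (adjusted p = 0.122). mrg-1 at -0.36 ± 0.12 (adjusted p = 0.0622) and mes-6 at -0.29 ± 0.12 (adjusted p = 0.106) passed with the replicate block (adjusted p = 0.00666 and 0.0290), which called 61.7% of expressed genes, and with a mean of at least 10 counts (adjusted p = 0.0346 and 0.0473). The count of 4 rested on few libraries: it was 2 without control P replicate 2 or 3, where mes-3 and met-1 no longer passed (adjusted p 0.0782 to 0.127). mes-3 also missed the threshold without any 1 of the gld-2(RNAi) P libraries (adjusted p 0.0587 to 0.0910) and with library size alone (adjusted p = 0.0570). Conversely, mrg-1 passed with library size alone (adjusted p = 0.00982) and without gld-2(RNAi) P replicate 1 (adjusted p = 0.0150). Without all replicate 1 libraries, mrg-1 (-0.40, adjusted p = 3.82e-05) and mes-6 (-0.29, adjusted p = 0.00368) passed as lower. Fits that left out libraries called 868 to 2835 expressed genes lower.

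In the edgeR fits of all libraries without a block, mes-2 alone of the 8 passed in both knockdowns. It was higher in gld-2(RNAi) and lower in gld-4(RNAi). The block adds mes-4 and met-2 in gld-4(RNAi) input, and the fit without replicate 1 adds mes-4, as given above. mes-2 was lower in gld-4(RNAi) in NP, at 61.3, 81.5 and 77.6 CPM against 103, 125 and 120 CPM under control RNAi, a change of -0.70 ± 0.11 (adjusted p = 0.00770). In P it was at 50.2, 51.0 and 53.8 CPM against 71.2, 83.7 and 86.8 CPM, a change of -0.63 ± 0.10 (adjusted p = 0.0398). The gld-4(RNAi) libraries lay below all control libraries in both fractions. In NP 15.2% of expressed genes were lower (1132 genes, 506 to 1862 when libraries were left out) and in P 2.68% (199 genes, 0 to 1903), and mes-2 was the 1 gene of the 8 that passed in either fraction. The call in NP was kept under every alternative tried. That in P was lost with library size alone (adjusted p = 0.196), without a filter (adjusted p = 0.0599), and without any 1 of the control P libraries or gld-4(RNAi) P replicate 2 or 3 (adjusted p 0.0902 to 0.214), with the change between -0.73 and -0.57 in these fits. The other 7 genes had changes of -0.11 to 0.08 in NP (adjusted p of at least 0.420) and of -0.15 to 0.21 in P (adjusted p of at least 0.461).

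**Figure D2:**
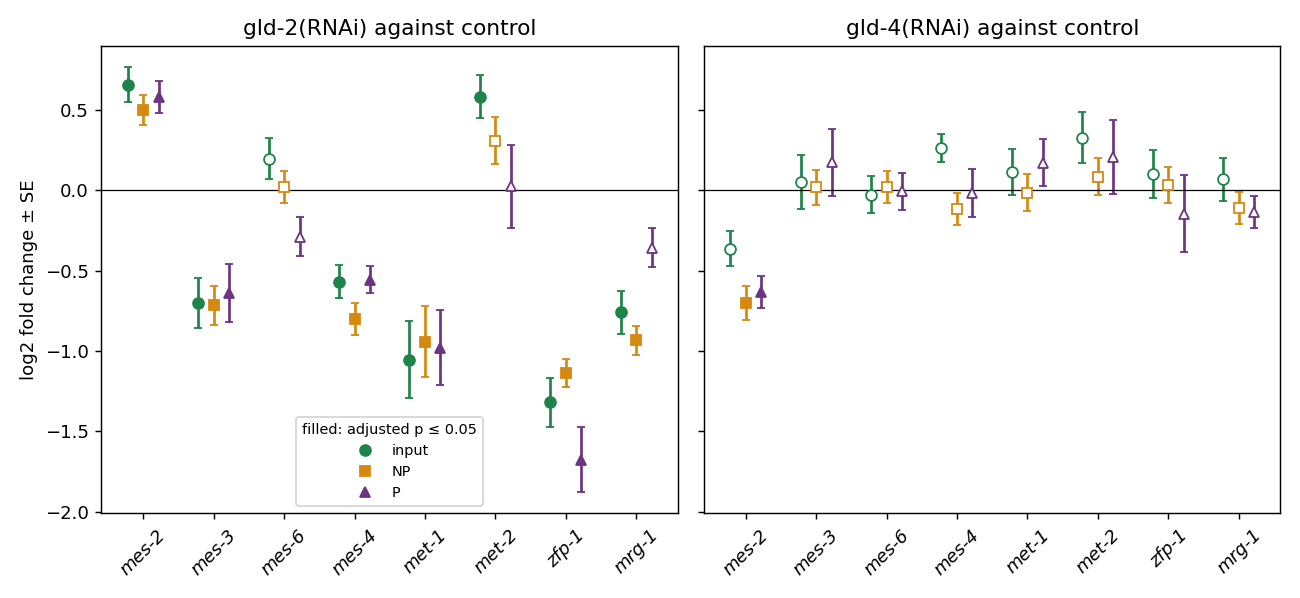
Log2 fold change against control RNAi with its standard error for each gene in input, NP and P, for gld-2(RNAi) on the left and gld-4(RNAi) on the right; filled symbols have an adjusted p of at most 0.05. In gld-2(RNAi) mes-3, mes-4, met-1 and zfp-1 are filled below 0 in all 3 kinds of library and mes-2 above 0, and in gld-4(RNAi) the filled symbols are those of mes-2 in NP and P.

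The ratio of P to NP describes how far an mRNA sits on polysomes relative to the other mRNAs of the same libraries. Under control RNAi, 5 of the 8 were lower in P than in NP, where 35.9% of expressed genes were. All 4 mes mRNAs were among them, at -0.54 ± 0.10 for mes-2, -0.74 ± 0.16 for mes-3, -0.84 ± 0.09 for mes-4 and -0.62 ± 0.10 for mes-6 (adjusted p from 0.000268 to 0.00495). mrg-1 was the fifth, at -0.83 ± 0.09 (adjusted p = 0.000329), with 312, 346 and 299 CPM in NP and 195, 166 and 179 CPM in P, which did not overlap. zfp-1 (-0.11), met-1 (-0.19) and met-2 (0.30) did not pass, and with the replicate block met-1 passed as lower (adjusted p = 0.0266) and met-2 as higher (adjusted p = 0.0113), in a fit that called 84.3% of expressed genes, so that 7 of the 8 was near the share of all genes. Without replicate 1, met-1 passed as lower (-0.22, adjusted p = 0.0174) and met-2 as higher (0.35, adjusted p = 0.000718) in edgeR. met-2 also passed without control P replicate 1 (0.50, adjusted p = 0.0106). Fits that left out libraries called 2387 to 3068 expressed genes lower and 2076 to 3123 higher. The median ratio of the 8 was -0.58 on the log2 scale, and that of all expressed genes 0.05.

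In gld-2(RNAi) 5 of the 8 were lower in P than in NP, where 29.9% of expressed genes were: the 4 mes mRNAs, between -0.96 and -0.48, and zfp-1 at -0.68 ± 0.17 (adjusted p = 0.0149). mrg-1 was not among them, at -0.28 ± 0.11 (adjusted p = 0.0746), and passed with the replicate block (adjusted p = 0.0142), as did met-1 (-0.24, adjusted p = 0.0357). Library size alone also passed mrg-1 as lower (-0.68, adjusted p = 0.00208), as did the fit without gld-2(RNAi) P replicate 1 (adjusted p = 0.0132). Without replicate 1, mrg-1 (-0.35, adjusted p = 4.78e-05) and met-1 (-0.26, adjusted p = 0.00308) passed as lower. Fits that left out libraries called 1790 to 3149 expressed genes lower. In gld-4(RNAi) 4 were lower in P, where 28.2% of expressed genes were: mes-2 (-0.45), mes-4 (-0.72), mes-6 (-0.62) and mrg-1 (-0.84). The call of mes-2 was lost without NP replicate 2 or 3 or P replicate 2 of gld-4(RNAi) and without a filter (adjusted p 0.0509 to 0.0740). mes-3 at -0.56 ± 0.20 (adjusted p = 0.0595) and met-2 at 0.45 ± 0.16 (adjusted p = 0.0568) passed with the replicate block (adjusted p = 0.0203 and 0.0131). Both also passed with DESeq2 (adjusted p = 0.00307 and 0.00510) and without replicate 1 (adjusted p = 0.000102 and 1.26e-05). zfp-1 passed as lower without replicate 1 as well (-0.24, adjusted p = 0.00408). Fits that left out libraries called 1673 to 3094 expressed genes lower and 1266 to 3191 higher. The block called 77.5% of expressed genes in gld-2(RNAi) and 75.2% in gld-4(RNAi). The direction of met-2 depended on the scaling under control RNAi, where its ratio was -0.060 with library size alone, and in gld-4(RNAi) it was 0.18 with that scaling (adjusted p = 0.586).

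**Figure D3:**
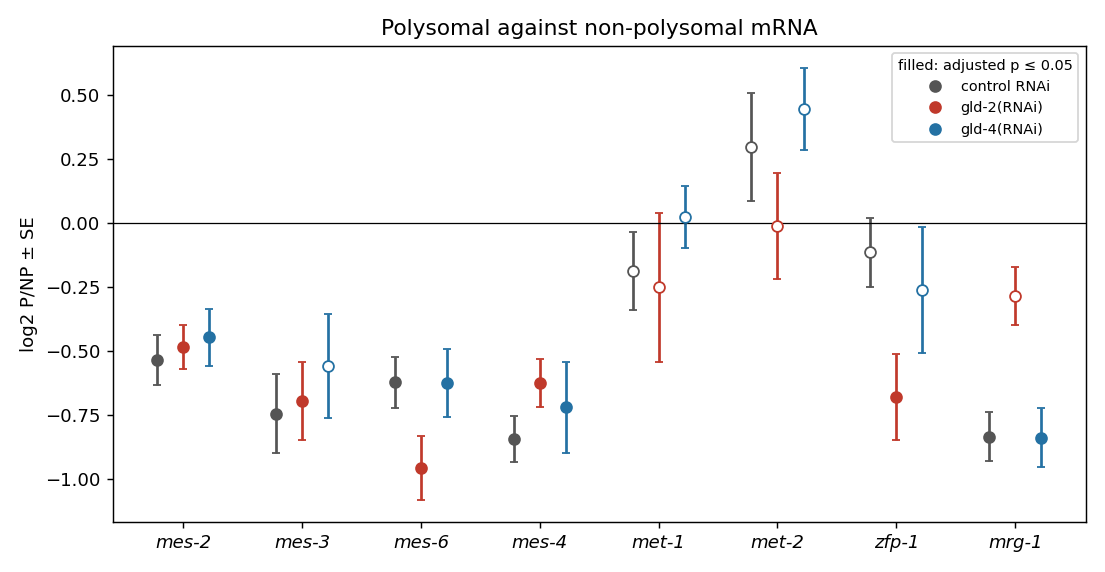
Log2 ratio of the P to the NP level with its standard error for each gene under the 3 RNAi conditions; filled symbols have an adjusted p of at most 0.05. The 4 mes mRNAs lie between -0.96 and -0.45 in all 3 conditions, and mrg-1 lies at -0.83 under control RNAi, at -0.28 in gld-2(RNAi) and at -0.84 in gld-4(RNAi).

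Whether a ratio differed between RNAi conditions was tested with an interaction term, fitted to the 12 NP and P libraries of the RNAi condition and its control. For gld-2(RNAi) none of the 8 passed the edgeR test, where 6.59% of expressed genes did, 3 had an unadjusted p under 0.05, and 1 passed with DESeq2. Those 3 were mrg-1, whose ratio was higher by 0.52 ± 0.16 (adjusted p = 0.0777), zfp-1 at -0.60 ± 0.22 (adjusted p = 0.141) and mes-6 at -0.37 ± 0.16 (adjusted p = 0.214). All 3 passed with a block that pairs the NP and P libraries of the same RNAi condition and replicate number. The adjusted p was 0.0113 for mrg-1, 0.0115 for zfp-1 and 0.0235 for mes-6, in a fit that called 30.9% of expressed genes. mrg-1 also passed with DESeq2 (adjusted p = 0.0165). In edgeR it passed with library size alone (adjusted p = 0.0310) and with a mean of at least 10 counts (adjusted p = 0.0392). Without the replicate 1 libraries, mrg-1 (0.67, adjusted p = 0.000102) and mes-4 (0.33, adjusted p = 0.0297) passed as higher. zfp-1 passed as lower in that fit (-0.34, adjusted p = 0.0210). With libraries left out, the expressed genes called ran from 0 to 1219 lower and from 0 to 1518 higher. The median change over all expressed genes was -0.14, so that relative to it the change of mrg-1 was larger and those of zfp-1 and mes-6 smaller. For gld-4(RNAi) none of the 8 passed, with changes of -0.16 to 0.19 (adjusted p of at least 0.916). There 0 had an unadjusted p under 0.05, 0 passed with DESeq2, and 0.0404% of expressed genes passed.

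Other chromatin genes were taken from 5 lists written from known functions, 70 genes in all, of which 65 were expressed. The lists were chosen with earlier results of these data known, so their counts are a description and are not independent of the data. In gld-2(RNAi) input 35 of the 65 were lower and 6 higher, with a median of -0.58, and in gld-4(RNAi) input 1 was lower and 7 were higher, with a median of 0.06. Over all expressed genes the shares in gld-4(RNAi) input were 7.52% lower and 7% higher. The lists were described by their counts beside these shares and those given above.

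Of 14 expressed genes for H3K4 methylation, a mark of active promoters, 7 were lower in gld-2(RNAi) and 0 higher. The largest decreases were those of lsd-1 (-2.11 ± 0.23, adjusted p = 0.000755) and rbr-2 (-1.65 ± 0.18), which encode demethylases, and of set-17 (-1.39 ± 0.14), which encodes a methyltransferase. In gld-4(RNAi) 2 of the 14 were higher, ash-2 (0.59 ± 0.10), a subunit of the COMPASS methyltransferase complex, and set-17 (0.54 ± 0.11).

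Of 13 expressed genes for H3K9 methylation and its readers, 7 were lower in gld-2(RNAi) and 1 higher. set-25, the other main H3K9 methyltransferase gene beside met-2, fell, with a change of -2.22 ± 0.15 (adjusted p = 0.000223), where met-2 rose. cec-3 (-1.83 ± 0.13), a chromodomain protein gene, and arle-14 (-1.68 ± 0.13) followed, and lin-61, an MBT repeat protein gene, rose by 0.48 ± 0.15. In gld-4(RNAi) set-25 was lower, at -0.50 ± 0.12 (adjusted p = 0.0392), and cec-4 (0.71 ± 0.11) and lin-61 (0.50 ± 0.11) were higher.

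Among 18 genes for partners of MRG-1 and ZFP-1, the SIN-3 complex and acetyltransferases, 12 were lower and 4 higher in gld-2(RNAi). The acetyltransferase gene mys-4 (-1.88 ± 0.26) and the related genes set-26 (-1.43 ± 0.22) and set-9 (-1.27 ± 0.20) fell most, and sin-3, a corepressor gene, rose by 1.44 ± 0.15 (adjusted p = 0.000726), with ekl-1 at 0.91 ± 0.16 and athp-1 at 0.84 ± 0.20. In gld-4(RNAi) hda-3 (0.57 ± 0.14) and gfl-1 (0.50 ± 0.12) were higher. Of 18 genes of the synMuv B, DRM and Mi-2 group, 8 were lower, with lin-36 (-1.64 ± 0.14), lin-54 (-1.21 ± 0.17) and chd-3 (-1.05 ± 0.27) first, and 1 was higher, let-418 (0.93 ± 0.13). chd-3 and let-418 both encode Mi-2 remodellers and moved in opposite directions. In gld-4(RNAi) lin-13 was higher (0.42 ± 0.08). Of 3 expressed H3K27 demethylase genes, jmjd-3.1 was lower in gld-2(RNAi), at -1.62 ± 0.45 (adjusted p = 0.0238), and 0 passed the edgeR test in gld-4(RNAi).

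**Figure D4:**
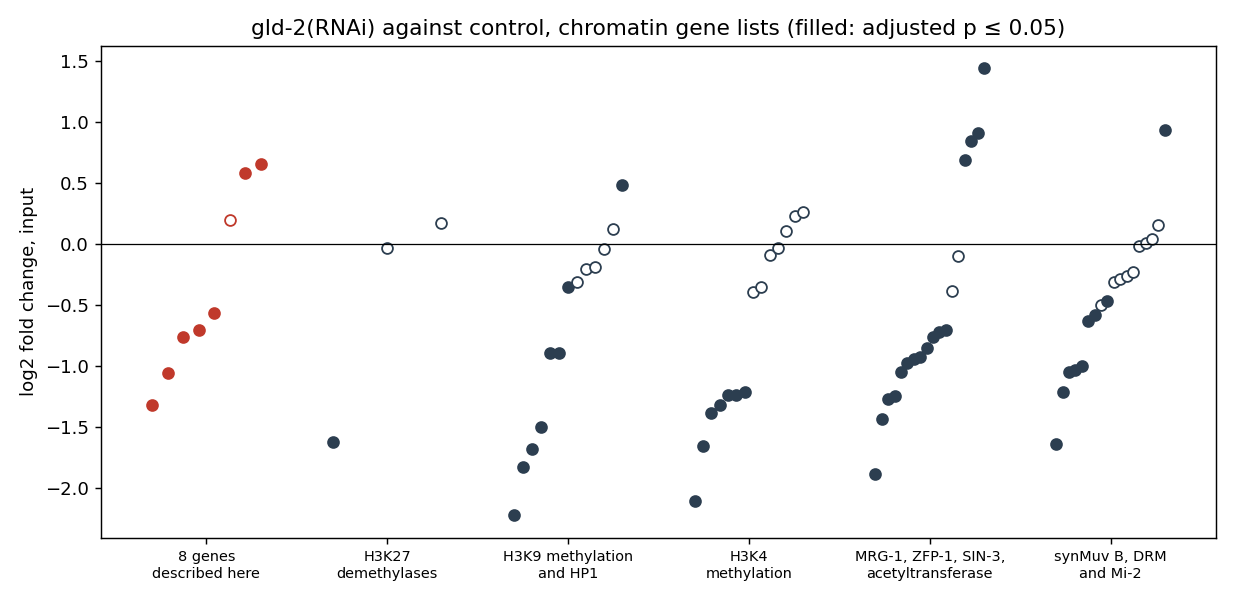
Log2 fold change in gld-2(RNAi) input of the 8 genes and of the expressed genes of 5 chromatin lists, 1 symbol per gene ordered by value within its list; filled symbols have an adjusted p of at most 0.05. Symbols below 0 outnumber those above it among the filled ones of each list, with set-25 at -2.22 lowest and sin-3 at 1.44 highest.

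Over the 27 libraries, the log2 levels of the 8 genes were compared by correlation. As a description across libraries that share RNAi conditions, fractions and replicate numbers, mes-3, mes-4, met-1, zfp-1 and mrg-1 correlated with each other at Pearson r of 0.65 to 0.92, the highest being mes-4 with mrg-1. mes-2 correlated negatively with each of these 5, between -0.61 and -0.15, and met-2 likewise, between -0.69 and -0.10. mes-2 and met-2 did not follow each other (r = -0.0022). mes-6 correlated positively with every other member: mes-3 (0.60), mes-4 (0.53), zfp-1 (0.34), mrg-1 (0.32), mes-2 (0.32), met-1 (0.19) and met-2 (0.16). The expressed genes most like each member over the 27 libraries were tbg-1 (r = 0.976) and cacn-1 (0.960) for mes-2, ZK484.4 (0.966) and hse-5 (0.965) for mes-3, and F08F8.10 (0.934) and arp-6 (0.928) for mes-6. They were M02B1.3 (0.979) and zen-4 (0.977) for mes-4, pqe-1 (0.969) and lit-1 (0.964) for met-1, and piki-1 (0.920) and unc-64 (0.912) for met-2. For zfp-1 they were viln-1 (0.976) and panl-2 (0.963), and for mrg-1 rcor-1 (0.978) and C31H1.8 (0.975).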

How the data were processed

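The authors deposited a table of raw read counts per gene, made by trimming adapters, aligning to the WS220 genome with TopHat2, keeping unique alignments and counting with featureCounts of Subread 1.4.0. Their 6 comparison tables hold DESeq fold changes and p-values, which were not used, and served only for gene names; their 72 columns of single samples were left out. FFluc RNA was added to the fractions, but 0 rows of the counts carry its name, so P/NP is relative to other mRNAs. The study's text and its library kit differ on strandedness.

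Groups came from the sample labels. Counts were fitted with edgeR 4.0.16 in R 4.3.3 (robust quasi-likelihood, TMM, two-sided) on the 6 libraries of a comparison, or 12 for the interaction, over 7425 genes. SE is the absolute log2 fold change divided by the root of F. Alternatives were a replicate block, DESeq2 1.42.0, library size alone, a mean of at least 10 counts, no filter, and leaving out each library or all replicate 1 libraries. Libraries with the same replicate number deviated together from their group means (r 0.485 to 0.902 over 10 comparisons, each above 0.1), so the numbers of the labels were taken to pair them. Libraries with different numbers reached 0.868, in gld-4(RNAi) P/NP, where the same-number values were 0.795 to 0.900. Replicate 1 stood apart in every group, so this check cannot show that the numbers 2 and 3 pair libraries. The results with the replicate block therefore rest on an assumed pairing. The spread between replicates exceeded counting noise (chi-square divided by its degrees of freedom, 9.69 to 215). No label ties replicates to separate cultures, so p-values measure the spread between these libraries, which may be technical. Exon lengths came from a later build (WBcel235), so no positions are given. The genes named are the 8 in every comparison, up to 3 genes per direction and chromatin list in the input, the 2 genes most correlated with each member, and the RNAi targets. Members and lists were chosen with earlier results of these data known. The fits were tested on simulated data.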

Additional observations from a re-analysis of the deposited data

How the results depend on the processing

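The 96 member values (8 genes in 12 comparisons) were recomputed under every alternative. Of these, 40 passed the threshold and none of the 40 changed sign under any alternative. Of the 40, 7 lost the threshold under at least 1 alternative, and of the others 18 passed under at least 1. The counts of members that fell in gld-2(RNAi) input and NP stayed at 5 under every alternative.

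Counts of members that differed by more than 1.5 times from those reported are given first. With the replicate block, in the pairing by number, the count of members was 1 lower in gld-4(RNAi) input, 2 higher in gld-4(RNAi) input, 2 higher in gld-2(RNAi) NP, 1 higher in control P/NP, 1 higher in gld-4(RNAi) P/NP, 2 lower in the P/NP change of gld-2(RNAi) and 1 higher in the P/NP change of gld-2(RNAi). With DESeq2, the count of members was 1 lower in gld-4(RNAi) input, 1 higher in gld-4(RNAi) P/NP and 1 higher in the P/NP change of gld-2(RNAi). With library size alone, the count of members was 1 higher in gld-2(RNAi) input, 0 higher in gld-2(RNAi) NP, 0 higher in gld-2(RNAi) P, 0 lower in gld-4(RNAi) P and 1 higher in the P/NP change of gld-2(RNAi). With a mean of at least 10 counts, the count of members was 1 higher in the P/NP change of gld-2(RNAi). Without a filter, the count of members was 1 higher in gld-2(RNAi) input, 0 higher in gld-2(RNAi) NP and 0 lower in gld-4(RNAi) P. The smaller differences were, with the replicate block, 6 lower in gld-2(RNAi) P, 6 in control P/NP, 7 in gld-2(RNAi) P/NP and 5 in gld-4(RNAi) P/NP, with a mean of at least 10 counts 6 lower in gld-2(RNAi) P, with library size alone 6 lower in gld-2(RNAi) P/NP, and with DESeq2 5 lower in gld-4(RNAi) P/NP. The block called 45.8% of expressed genes in gld-4(RNAi) input, 70.9% in gld-2(RNAi) NP, 61.7% in gld-2(RNAi) P, 84.3% in control P/NP, 77.5% in gld-2(RNAi) P/NP, 75.2% in gld-4(RNAi) P/NP and 30.9% in the P/NP change of gld-2(RNAi).

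Leaving out libraries, the counts ranged from 1 to 2 higher in gld-2(RNAi) input, from 0 to 1 lower in gld-4(RNAi) input, from 0 to 1 higher in gld-4(RNAi) input, from 1 to 2 higher in gld-2(RNAi) against gld-4(RNAi) input, from 1 to 2 higher in gld-2(RNAi) NP, from 2 to 6 lower in gld-2(RNAi) P, from 0 to 1 lower in gld-4(RNAi) P, from 0 to 1 higher in control P/NP, from 0 to 1 higher in gld-4(RNAi) P/NP, from 0 to 2 higher in the P/NP change of gld-2(RNAi) and from 0 to 1 lower in the P/NP change of gld-2(RNAi).

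In all, 24 values changed sign. None of them passed the threshold as reported or in the fit with the opposite sign. The largest was 0.30, that of met-2 in control P/NP, which did pass with the replicate block and without replicate 1. With DESeq2, these were met-1 0.0073 in gld-4(RNAi) NP, mes-4 0.0083 and mes-6 0.020 in gld-4(RNAi) P and met-2 0.045 in gld-2(RNAi) P/NP. With library size alone, these were mes-3 -0.022 and mrg-1 -0.0016 in gld-4(RNAi) input, mes-6 -0.12 in gld-2(RNAi) NP, mes-3 -0.028, mes-6 -0.016 and zfp-1 -0.00030 in gld-4(RNAi) NP, met-2 -0.15 in gld-2(RNAi) P, mes-4 0.075 and mes-6 0.074 in gld-4(RNAi) P, met-2 -0.060 in control P/NP, met-1 -0.25 in gld-4(RNAi) P/NP and mes-6 0.090 and mrg-1 0.087 in the P/NP change of gld-4(RNAi). With a mean of at least 10 counts, these were mes-3 -0.030 and mrg-1 -0.0051 in gld-4(RNAi) input, mes-6 -0.18 in gld-2(RNAi) NP, mes-3 -0.088, mes-6 -0.083, zfp-1 -0.070 and met-2 -0.019 in gld-4(RNAi) NP, met-2 -0.073 in gld-2(RNAi) P, met-2 0.015 in gld-2(RNAi) P/NP, met-1 -0.039 in gld-4(RNAi) P/NP and met-1 0.11 in the P/NP change of gld-2(RNAi). Without a filter, these were mes-3 -0.032 and mrg-1 -0.0062 in gld-4(RNAi) input, mes-6 -0.21 in gld-2(RNAi) NP, mes-3 -0.11, mes-6 -0.10, zfp-1 -0.088 and met-2 -0.036 in gld-4(RNAi) NP, met-2 -0.055 in gld-2(RNAi) P, met-2 0.085 in gld-2(RNAi) P/NP, met-1 -0.12 in gld-4(RNAi) P/NP and met-1 0.035 in the P/NP change of gld-2(RNAi). In gld-4(RNAi) input, leaving out libraries gave mes-3 -0.087 to 0.13, mes-6 -0.089 to 0.048, zfp-1 -0.067 to 0.20, met-1 -0.070 to 0.20 and mrg-1 -0.018 to 0.18. In gld-2(RNAi) NP, leaving out libraries gave mes-6 -0.10 to 0.082. In gld-4(RNAi) NP, leaving out libraries gave mes-3 -0.082 to 0.12, mes-6 -0.060 to 0.081, zfp-1 -0.040 to 0.12, met-1 -0.13 to 0.053 and met-2 -0.031 to 0.16. In gld-2(RNAi) P, leaving out libraries gave met-2 -0.18 to 0.20. In gld-4(RNAi) P, leaving out libraries gave mes-4 -0.11 to 0.12, mes-6 -0.071 to 0.076 and zfp-1 -0.27 to 0.061. In control P/NP, leaving out libraries gave zfp-1 -0.22 to 0.013. In gld-2(RNAi) P/NP, leaving out libraries gave met-2 -0.11 to 0.17. In gld-4(RNAi) P/NP, leaving out libraries gave met-1 -0.11 to 0.13. In the P/NP change of gld-2(RNAi), leaving out libraries gave mes-2 -0.034 to 0.20, mes-3 -0.038 to 0.18 and met-1 -0.17 to 0.030. In the P/NP change of gld-4(RNAi), leaving out libraries gave mes-6 -0.082 to 0.047 and mrg-1 -0.13 to 0.046.

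The cause of these differences was not tested. The number of expressed genes called lower, which the shares in the results rest on, moved as well. When libraries were left out, it was 1282 to 2662 in gld-2(RNAi) input (reported 1836), 0 to 1928 in gld-4(RNAi) input (558), 506 to 1862 in gld-4(RNAi) NP (1132), 868 to 2835 in gld-2(RNAi) P (1582), 0 to 1903 in gld-4(RNAi) P (199) and 0 to 1219 in the P/NP change of gld-2(RNAi) (270). Under the other settings it was 1920 to 2392, 323 to 1637, 733 to 1752, 1677 to 2303, 16 to 905 and 21 to 1540, in the same order. The replicate block changed no call of a member other than those given with the results and here.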
